A study of Mus musculus with 2 samples.

Results

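The genes described here are 10 that encode the mitochondrial enzymes and regulators of branched-chain amino acid breakdown: Bcat2, Bckdha, Bckdhb, Dbt, Bckdk, Ppm1k, Ivd, Mccc1, Mccc2 and Hibadh. They were taken by symbol from a table of 44787 gene rows, and all 10 had a row. RNA of hindlimb skeletal muscle was sequenced from C57BL/6 mice at postnatal day 30, with 1 library of the genotype SRSF1-MKO and 1 library of WT. SRSF1 is a splicing factor of the serine/arginine-rich family. The abbreviation MKO is not spelled out in the labels, and neither the driver of the deletion nor the number, sex or pooling of the animals is given in the sources used here. With 1 library in each group there is no replicate check and no test between genotypes; all intervals below are 95% intervals for the counting of reads and hold no variation between animals or preparations.

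Leucine, isoleucine and valine are degraded in mitochondria, and skeletal muscle is a main site of the first step. The aminotransferase BCAT2 moves their amino group to 2-oxoglutarate. The branched-chain keto acid dehydrogenase complex then removes carbon dioxide from the keto acid, a committed and irreversible step that the kinase BCKDK shuts off and the phosphatase PPM1K restores. Beyond the complex the paths part: leucine goes through IVD and methylcrotonyl-CoA carboxylase to acetyl-CoA and acetoacetate, valine through HIBADH to propionyl-CoA, and isoleucine to acetyl-CoA and propionyl-CoA.

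The deposited values are FPKM (fragments or reads per kilobase of transcript and per 1000000 mapped reads), which are per length and can be set side by side between genes. The library totals recovered from the steps of the FPKM values were 21350284 reads for SRSF1-MKO and 23146640 reads for WT. The measure of difference, called the log2 ratio here, was log2 of SRSF1-MKO FPKM + 1 over WT FPKM + 1; the pseudocount of 1 makes it smaller than the plain ratio for genes with few FPKM. It was taken for the 10478 genes that averaged at least 1 FPKM, and past 1.5-fold on this scale a gene is called higher or lower. Over these genes the median log2 ratio was 0.21, and it was 0.32 over the 4991 genes that averaged at least 5 FPKM, so the middle gene was above 0. Srsf1 itself was at 6.70 FPKM in the library labelled SRSF1-MKO and 13.7 FPKM in the library labelled WT. Each sample carries 2 description lines that contradict each other about its column, and columns were assigned by the genotype in their names; under the other reading every ratio below would be inverted. All 10 skeletal muscle markers were above 1 FPKM in both libraries, but 5 were lower and 2 higher (8 and 2 with the median of genes at 5 FPKM or more set to 0). Among all genes compared, 8.13% were lower and 23.7% higher as deposited, or 18.1% and 11.4% with that median set to 0. The 2 higher were the myosin genes Myh1 (4028 FPKM in SRSF1-MKO and 1176 FPKM in WT) and Myh2 (2399 and 78.2 FPKM, in the same order). The 5 lower as deposited were the myosin gene Myh4 (7176 FPKM in SRSF1-MKO and 28777 FPKM in WT), Ckm, Tnnt3, Ryr1 and Pvalb. The summed level of the 10 markers was 45575 FPKM in SRSF1-MKO and 86209 FPKM in WT, and Myh4 was a large part of that gap. The part of these markers in the differences below was not tested.

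Of the 10 genes, 4 were lower in SRSF1-MKO by the 1.5-fold rule, 0 were higher and 6 lay between. The lower genes were Bcat2, Mccc1, Ivd and Ppm1k, the last of which passed the filter through its WT value. Among all genes compared, 8.13% were lower and 23.7% were higher by the same rule. The median log2 ratio of the 10 was -0.35, against 0.21 for all genes compared. With the median of genes at 5 FPKM or more set to 0, 5 of the 10 were lower and 0 higher, the added gene being Mccc2, while the shares of all genes became 18.1% lower and 11.4% higher. All 10 lay below that median. With mitochondrial and ribosomal RNA left out of the scale, 1 of the 10 (Bcat2) was lower and 0 higher, against 5.01% lower and 42.3% higher of all genes; Mccc1, Ivd and Ppm1k were then at log2 ratios of -0.41, -0.36 and -0.51, short of 1.5-fold. The 10 did not differ by a like amount: the aminotransferase, the phosphatase and the leucine enzymes had the smaller ratios, and the subunits of the dehydrogenase complex and the valine enzyme Hibadh had ratios closer to 1.

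**Figure D1:**
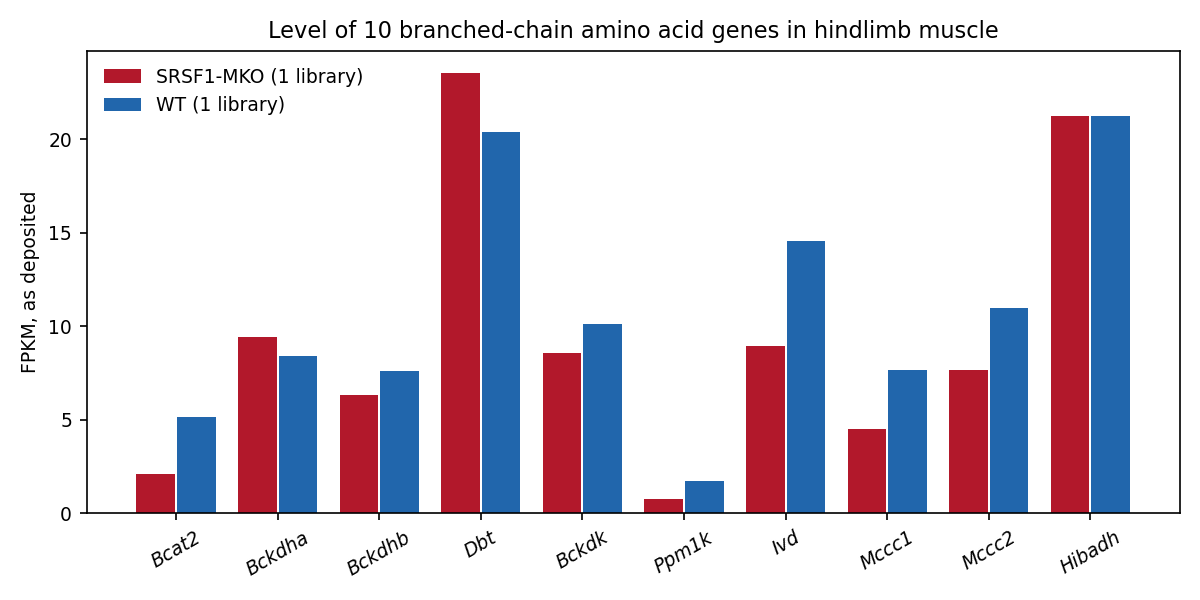
Level in FPKM (vertical axis, linear from 0) of each of the 10 genes in the SRSF1-MKO library (red) and the WT library (blue), 1 library each, so no error bar is drawn. Dbt and Hibadh stood above 20 FPKM in both libraries, and Ppm1k was the lowest at 0.785 and 1.74 FPKM.

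The order of the levels was much alike in both libraries. In SRSF1-MKO it ran from Dbt and Hibadh through Bckdha, Ivd, Bckdk, Mccc2, Bckdhb and Mccc1 down to Bcat2 and Ppm1k. In WT, Hibadh and Dbt were again on top, followed by Ivd, Mccc2, Bckdk and Bckdha, and Bcat2 and Ppm1k were again at the bottom. Bckdha therefore stood above Ivd and Mccc2 in SRSF1-MKO and below both in WT. Summed over the 10 genes, the level was 93.2 FPKM in SRSF1-MKO and 108 FPKM in WT, a ratio of 0.863.

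Bcat2, the mitochondrial aminotransferase that opens the pathway, had the smallest ratio of the 10. It was at 2.12 FPKM in SRSF1-MKO and 5.14 FPKM in WT, from at least 91 and 239 reads. This is 2.42-fold lower, a ratio of 0.413 with a counting interval of 0.321 to 0.528, and a log2 ratio of -0.98. Only 3.31% of all genes compared had a lower log2 ratio. The gene lies on the plus strand of chromosome 7, and the deposited row covers 45571192 to 45589710 (mm10), whereas GENCODE begins the gene (ENSMUSG00000030826.19) upstream at 45570153. The antisense gene 0610005C13Rik shares 622 exonic bases with it in GENCODE and was listed at 0 in both libraries. The cytosolic counterpart Bcat1, known mainly from the brain, was at 0.231 FPKM in SRSF1-MKO and 0.235 FPKM in WT and stayed under the filter. Fat tissue also expresses Bcat2, and most adipocyte markers were lower in SRSF1-MKO as well. Of 9 adipocyte markers compared, 6 were lower and 0 higher, beside 8.13% lower and 23.7% higher of all genes. Adipoq was at 2.66 FPKM in SRSF1-MKO and 9.36 FPKM in WT. Plin1, which passed the filter through WT, was at 0.660 and 2.62 FPKM in the same order. Plin4 (20.1 FPKM in SRSF1-MKO and 14.4 FPKM in WT) and Fabp4 (334 and 246 FPKM) lay above 0, within 1.5-fold. The summed level of the 10 adipocyte markers was 374 FPKM in SRSF1-MKO and 308 FPKM in WT, most of it Fabp4, which endothelial cells also make, and none of these markers was listed at 0. The part of fat cells in the Bcat2 difference was not tested, and in whole muscle fewer cells of a type and less RNA per cell cannot be told apart.

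The 3 subunit genes of the dehydrogenase complex stayed within 1.5-fold. Bckdha, the alpha subunit of the decarboxylase that carries the regulatory phosphorylation, was at 9.43 FPKM in SRSF1-MKO and 8.43 FPKM in WT (357 and 346 reads; ratio 1.12, interval 0.962 to 1.30). Bckdhb, the beta subunit of the same enzyme, was at 6.35 FPKM in SRSF1-MKO and 7.61 FPKM in WT (ratio 0.836, interval 0.693 to 1.01). Dbt, the transacylase that forms the core of the complex, was at 23.6 FPKM in SRSF1-MKO and 20.4 FPKM in WT, and its 1656 and 1555 reads gave a ratio of 1.15 (interval 1.08 to 1.24). Bckdha and Dbt thus lay slightly above 0 on the log2 scale as deposited, at 0.15 and 0.20, and below 0 once the median of genes at 5 FPKM or more was set to 0, at -0.18 and -0.12. The intervals of the Bckdha and Bckdhb ratios include 1. The shared dihydrolipoamide dehydrogenase subunit Dld, which serves the pyruvate and oxoglutarate dehydrogenases too, was at 145 FPKM in SRSF1-MKO and 112 FPKM in WT, far above the other subunits. Bckdha (chromosome 7, 25629852 to 25658761, minus strand) shares 1171 exonic bases with B3gnt8 on the opposite strand, but B3gnt8 was at 0.201 FPKM in SRSF1-MKO and 0.208 FPKM in WT.

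A ratio of levels within a library does not depend on how the libraries are scaled, and such ratios were formed for pairs of genes by their roles, chosen with the values known. Dbt over Bckdha was 2.50 in SRSF1-MKO and 2.42 in WT, so the core and the alpha subunit kept nearly the same proportion (quotient 1.03, interval 0.874 to 1.22). Bckdha over Bckdhb was 1.48 in SRSF1-MKO and 1.11 in WT, with a quotient of 1.34 (interval 1.05 to 1.70). Dbt over Bckdhb was 3.71 in SRSF1-MKO and 2.68 in WT. The alpha and beta subunits, which form a tetramer in equal numbers, were thus further apart at the RNA level in SRSF1-MKO, as far as the deposited rows cover them. The row of Bckdhb covers 83986103 to 84124240 on the plus strand of chromosome 9, while GENCODE begins the gene upstream at 83925145. Reads in that stretch lie outside the row. Bcat2 over Dbt, the transaminating enzyme against the dehydrogenase core, was 0.0901 in SRSF1-MKO and 0.252 in WT, a quotient of 0.358 (interval 0.275 to 0.462).

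Of the kinase and the phosphatase of the complex, the phosphatase gene had the lower ratio. With mitochondrial and ribosomal RNA left out of the scale, the log2 ratio of Bckdk turned to 0.07 and that of Ppm1k was -0.51, no longer past 1.5-fold. Bckdk, the kinase that inactivates the complex, was at 8.57 FPKM in SRSF1-MKO and 10.1 FPKM in WT (523 and 669 reads; ratio 0.848, interval 0.754 to 0.952) and did not reach 1.5-fold. Ppm1k, the mitochondrial phosphatase that reactivates it, was at 0.785 FPKM in SRSF1-MKO and 1.74 FPKM in WT, 2.21-fold lower (ratio 0.452). It passed the filter through its WT value, so its call follows in part from the filter. Whole reads could not be recovered for Ppm1k; on its coding length of 1116 bases at least 18 and 44 reads stood behind the values, which gives the wide interval of 0.241 to 0.783. Bckdk over Ppm1k was 10.9 in SRSF1-MKO and 5.82 in WT, a quotient of 1.88 (interval 1.07 to 3.56). Relative to its substrate subunit, Bckdk over Bckdha was 0.909 in SRSF1-MKO and 1.20 in WT (quotient 0.758, interval 0.626 to 0.918). The deposited row of Ppm1k covers 57520609 to 57535512 on the minus strand of chromosome 6, while GENCODE extends the gene down to 57506502, and reads in that stretch lie outside the row.

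**Figure D2:**
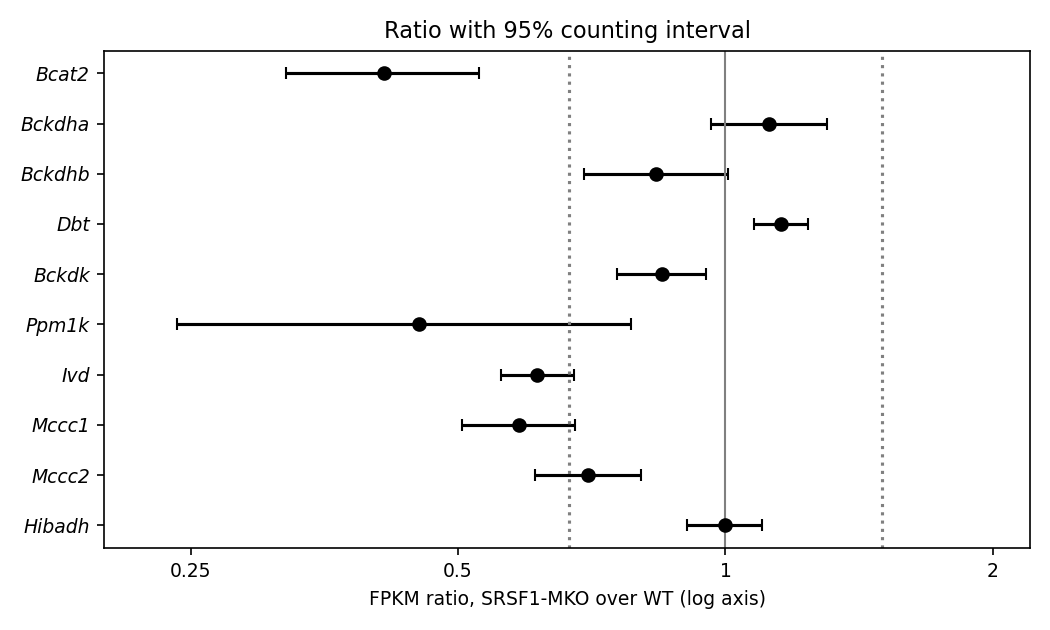
Ratio of FPKM in SRSF1-MKO over WT (horizontal log axis) for each gene, with exact binomial 95% intervals that cover read counting only; the solid line marks 1 and the dotted lines 1.5-fold on the plain ratio. Bcat2 at 0.413 lies furthest to the left, and the intervals of Bckdha, Bckdhb and Hibadh include 1.

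The 3 leucine genes among the 10 were all lower in level. Ivd, the flavoprotein that oxidises isovaleryl-CoA, was at 8.96 FPKM in SRSF1-MKO and 14.6 FPKM in WT, from at least 680 and 1200 reads (ratio 0.614, interval 0.558 to 0.676). Mccc1, the biotin-carrying alpha subunit of methylcrotonyl-CoA carboxylase, was at 4.51 FPKM in SRSF1-MKO and 7.70 FPKM in WT, from 288 and 533 reads (ratio 0.586, interval 0.506 to 0.677). Mccc2, the beta subunit that transfers the carboxyl group, was at 7.67 FPKM in SRSF1-MKO and 11.0 FPKM in WT (ratio 0.700, interval 0.610 to 0.802), a log2 ratio of -0.46 and so short of 1.5-fold. Their summed level was 21.1 FPKM in SRSF1-MKO and 33.3 FPKM in WT, a ratio of 0.636. The summed level of the 3 subunit genes of the dehydrogenase complex was 39.3 FPKM in SRSF1-MKO and 36.4 FPKM in WT. The summed leucine genes and the summed complex thus stood on opposite sides of equality as deposited. Against the core gene, Ivd over Dbt was 0.380 in SRSF1-MKO and 0.715 in WT (quotient 0.532, interval 0.473 to 0.599), and Mccc1 over Dbt was 0.191 in SRSF1-MKO and 0.377 in WT (quotient 0.507, interval 0.431 to 0.597). The carboxylase subunits kept a similar proportion to each other: Mccc2 over Mccc1 was 1.70 in SRSF1-MKO and 1.42 in WT (quotient 1.19, interval 0.977 to 1.46). GENCODE places the antisense gene Mccc1os over 198 exonic bases of Mccc1, and Mccc1os was at 0.0210 FPKM in SRSF1-MKO and 0.0194 FPKM in WT. The pseudogene B230207O21Rik (321 shared exonic bases) and the antisense gene Gm15952 (94) also overlap Mccc1 on the opposite strand. Neither had a row under its symbol, so their levels are not known.

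The promoter windows of these leucine genes are shown because the genes were lower together and the windows share a short box; that of Bcat2, with the smallest ratio, is shown beside them as a window without it. Each holds 250 bases before and 50 after the transcription start in RefSeq (GRCm38.p6), 5′ to 3′ on the gene's strand: chr2:118861744-118862043 plus for Ivd, chr3:36000629-36000928 minus for Mccc1, chr13:100015590-100015889 minus for Mccc2, and chr7:45569903-45570202 plus for the upstream start of Bcat2. The deposited row of Bcat2 begins downstream of the window shown, at 45571192. Its downstream window, at 45571029 to 45571328, is not shown and is also without the box. Capitals mark CCAAT, the box bound by NF-Y, or its reverse complement ATTGG.
Ivd: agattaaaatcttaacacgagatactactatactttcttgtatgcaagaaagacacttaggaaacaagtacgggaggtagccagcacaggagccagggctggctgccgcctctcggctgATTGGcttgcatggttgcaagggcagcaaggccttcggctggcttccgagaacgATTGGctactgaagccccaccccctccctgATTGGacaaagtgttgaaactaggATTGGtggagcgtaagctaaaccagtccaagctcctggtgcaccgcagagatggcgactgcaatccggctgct
Mccc1: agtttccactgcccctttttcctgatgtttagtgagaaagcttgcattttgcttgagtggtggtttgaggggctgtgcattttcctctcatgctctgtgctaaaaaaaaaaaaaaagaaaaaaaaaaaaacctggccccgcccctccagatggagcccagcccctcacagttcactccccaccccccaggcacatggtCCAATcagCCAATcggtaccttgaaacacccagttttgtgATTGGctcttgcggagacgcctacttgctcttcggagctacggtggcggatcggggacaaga
Mccc2: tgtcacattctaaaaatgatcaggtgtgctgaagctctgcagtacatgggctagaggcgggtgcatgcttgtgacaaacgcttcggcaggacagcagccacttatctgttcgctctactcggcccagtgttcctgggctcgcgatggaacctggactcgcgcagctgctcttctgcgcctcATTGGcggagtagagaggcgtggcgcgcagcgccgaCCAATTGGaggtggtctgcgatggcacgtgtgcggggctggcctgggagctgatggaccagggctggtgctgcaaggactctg
Bcat2: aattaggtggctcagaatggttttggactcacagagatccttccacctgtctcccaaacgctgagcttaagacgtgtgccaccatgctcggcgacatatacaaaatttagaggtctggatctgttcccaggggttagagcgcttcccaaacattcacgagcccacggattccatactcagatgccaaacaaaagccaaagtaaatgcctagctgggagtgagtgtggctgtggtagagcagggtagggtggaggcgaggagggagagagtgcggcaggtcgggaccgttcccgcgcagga

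The box occurred 4 times in the Ivd window, 3 times in that of Mccc1 and 3 times in that of Mccc2, where a pair of matches on opposite strands overlaps. Of 32851 RefSeq windows of the same length, 37.4% held at least 1 box and 3.37% held 3 or more. The 3 leucine windows were shown for sharing the box, so their counts beside these shares are a description and no test. Ppm1k, which was lower by 1.5-fold and is not shown, held 2 boxes, Bckdk 1 and Hibadh 1. The upstream window of Bckdhb held 2 boxes and its downstream window 1. The 2 windows of Bcat2 and that of Bckdha held none. A window was matched by symbol for 9 of the 10 genes, the other being Dbt. The boxes were thus found in genes with low and with near-equal ratios. TGATGNAA, a composite element bound by ATF4, was searched on both strands and matched 0 of the 11 windows of these genes, against 3.97% of all windows. TNAAGGTCA, the element of estrogen-related receptors, also matched 0 of 11, against 1.28% of all windows. These are matches of letters and not measured binding sites.

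Hibadh, which oxidises the free valine intermediate 3-hydroxyisobutyrate, was the member nearest to equality. It was at 21.2 FPKM in SRSF1-MKO and 21.3 FPKM in WT, from at least 786 and 854 reads (ratio 0.998, interval 0.905 to 1.10). Its log2 ratio was close to 0 as deposited and -0.32 with the median of genes at 5 FPKM or more set to 0. Hibadh over Ivd was 2.37 in SRSF1-MKO and 1.46 in WT, a quotient of 1.62 (interval 1.42 to 1.86). The snoRNA gene Gm24355 shares 122 exonic bases with Hibadh on the same strand in GENCODE. It had no row under its symbol, so its level is not known.

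**Figure D3:**
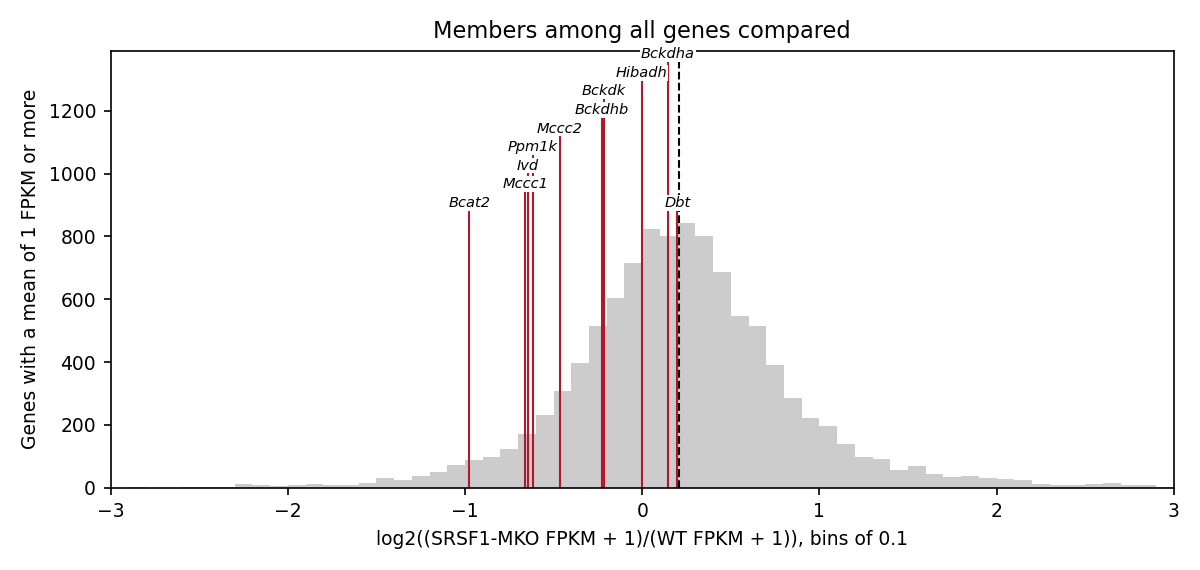
Number of genes (vertical axis) by log2((SRSF1-MKO FPKM + 1)/(WT FPKM + 1)) in bins of 0.1, drawn from -3 to 3, for the 10478 genes that averaged at least 1 FPKM; red lines mark the 10 members and the dashed line the median of 0.21. The members lie between -0.98 for Bcat2 and 0.20 for Dbt, all left of the dashed line, Dbt only just.

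The rest of the pathway was taken from a list of 20 further enzymes and cofactor proteins, of which 19 passed the filter. Of these, 6 were lower by 1.5-fold, 4 were higher and 9 lay between, and their median log2 ratio was -0.32. Among all genes compared 8.13% were lower and 23.7% higher, and the 4 higher genes were near the latter share. With the median of genes at 5 FPKM or more set to 0, 10 of the 19 were lower and 1 higher, beside 18.1% and 11.4% of all genes. The lower genes were Acadsb, Aldh6a1, Auh, Mmab, Oxct1 and Pcca, and the higher genes were Echs1, Hadh, Hadhb and Hsd17b10.

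On the leucine path, Auh, which hydrates methylglutaconyl-CoA, was at 9.23 FPKM in SRSF1-MKO and 14.5 FPKM in WT (log2 ratio -0.60). Of the 4 leucine genes described, with Ivd, Mccc1 and Mccc2, 3 were lower by 1.5-fold and 0 higher. The shares of all genes compared were 8.13% lower and 23.7% higher. With mitochondrial and ribosomal RNA left out of the scale, Ivd, Mccc1, Mccc2 and Auh were at log2 ratios of -0.36, -0.41, -0.18 and -0.31. None was then past 1.5-fold, where 5.01% of all genes were lower.

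On the isoleucine path, Acadsb, the short/branched-chain acyl-CoA dehydrogenase that takes the place of IVD there, was at 10.5 FPKM in SRSF1-MKO and 28.3 FPKM in WT, a ratio of 0.373 (interval 0.336 to 0.413). Hsd17b10, the dehydrogenase further along, was on the higher side at 19.0 FPKM in SRSF1-MKO and 11.4 FPKM in WT.

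On the valine path, Acad8, the isobutyryl-CoA dehydrogenase, was at 2.04 FPKM in SRSF1-MKO and 2.82 FPKM in WT. Hibch, which releases 3-hydroxyisobutyrate for HIBADH, was at 22.9 FPKM in SRSF1-MKO and 19.5 FPKM in WT. Aldh6a1, which follows HIBADH, was at 7.52 FPKM in SRSF1-MKO and 14.5 FPKM in WT (ratio 0.519). Hibadh thus stood between neighbours with ratios of 1.17 before it and 0.519 after it.

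The 6 genes that carry propionyl-CoA to succinyl-CoA were all lower in level as deposited, 2 of them by 1.5-fold. By that rule 8.13% of all genes compared were lower. Pcca, the biotin subunit of propionyl-CoA carboxylase, was at 2.81 FPKM in SRSF1-MKO and 7.91 FPKM in WT (ratio 0.356, interval 0.299 to 0.421), and its partner subunit Pccb was at 13.1 FPKM in SRSF1-MKO and 16.8 FPKM in WT. Mmab, which makes the cobalamin cofactor of the mutase, was at 1.99 FPKM in SRSF1-MKO and 5.12 FPKM in WT. The mutase Mmut (11.0 FPKM in SRSF1-MKO and 14.0 FPKM in WT), its guardian Mmaa (1.86 and 2.73 FPKM, in the same order) and the epimerase Mcee (25.5 and 27.3 FPKM) were between the limits; the sign of Mcee turned positive when mitochondrial and ribosomal RNA were left out of the scale.

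The 4 genes of steps shared with fatty acid oxidation were all above 0 as deposited, 3 of them past 1.5-fold. By that rule 23.7% of all genes compared were higher. Echs1, the short-chain enoyl-CoA hydratase, was at 51.2 FPKM in SRSF1-MKO and 23.4 FPKM in WT, 2.19-fold higher (interval 2.01 to 2.39). Hadh was at 48.3 FPKM in SRSF1-MKO and 30.2 FPKM in WT, and Hadhb at 26.9 FPKM in SRSF1-MKO and 17.1 FPKM in WT. Hadha, at 67.8 FPKM in SRSF1-MKO and 56.7 FPKM in WT, was within 1.5-fold. Relative to the median of genes at 5 FPKM or more, 1 of these 4 (Echs1) was past 1.5-fold, where 11.4% of all genes were higher. Hadha then lay just below 0, at -0.07. Of the ketone body genes, Oxct1, which activates acetoacetate, was at 30.3 FPKM in SRSF1-MKO and 111 FPKM in WT (ratio 0.273), the smallest log2 ratio of the list at -1.84, and Acat1 was at 31.0 FPKM in SRSF1-MKO and 23.9 FPKM in WT.

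**Figure D4:**
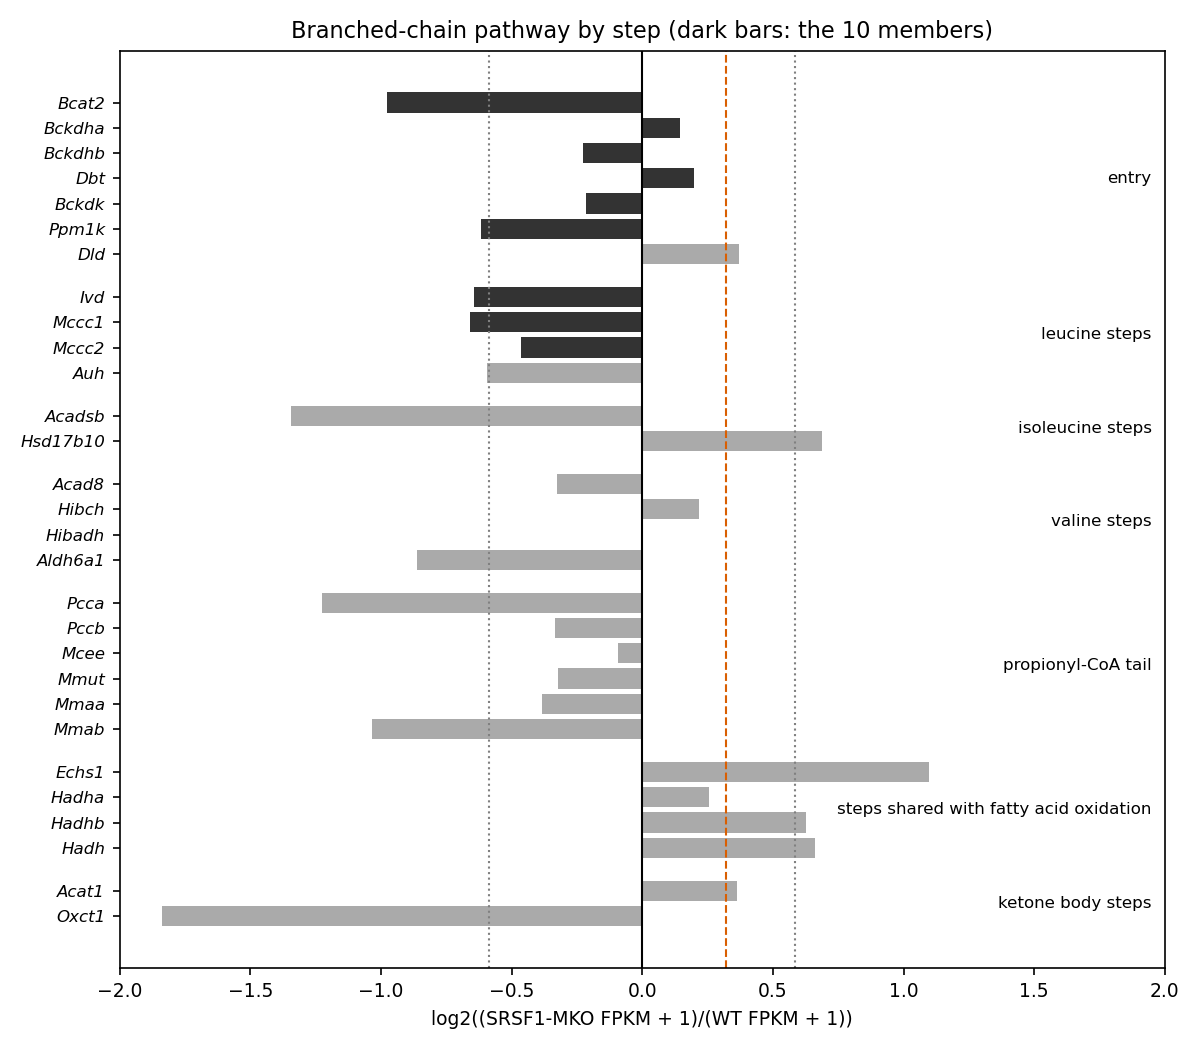
Log2((SRSF1-MKO FPKM + 1)/(WT FPKM + 1)) (horizontal axis) of the 10 members (dark) and 19 further pathway genes (grey), grouped by step; dotted lines mark 1.5-fold and the dashed line the median of 0.32 over genes at 5 FPKM or more. Leucine and propionyl-CoA steps lie left of 0 throughout, and the steps shared with fatty acid oxidation lie right of 0; the signs of Mcee and Hadha change with the scale.

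Of 5 transporters, 2 were higher and 0 lower, beside 23.7% higher and 8.13% lower of all genes. With the median of genes at 5 FPKM or more set to 0, 2 were higher and 1 lower, beside 11.4% and 18.1%. Slc7a5 passed the filter through its SRSF1-MKO value, so its call follows in part from the filter. Slc7a5, the plasma membrane carrier of leucine, was at 4.99 FPKM in SRSF1-MKO and 0.418 FPKM in WT (374 and 34 reads; ratio 11.9, interval 8.38 to 17.5), and its partner chain Slc3a2 was at 15.2 FPKM in SRSF1-MKO and 5.36 FPKM in WT. The mitochondrial branched-chain carrier Slc25a44 was at 7.78 FPKM in SRSF1-MKO and 4.87 FPKM in WT, just short of 1.5-fold on the log2 scale at 0.58. Slc43a1 (3.22 FPKM in SRSF1-MKO and 1.93 FPKM in WT) and Slc7a8 (1.20 FPKM in SRSF1-MKO and 1.92 FPKM in WT) were between the limits.

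The glutamate that BCAT2 forms passes its nitrogen on to other acceptors. Of 6 such genes, 4 were higher and 0 lower, or 3 and 0 with that median set to 0. Among all genes, 23.7% were higher as deposited and 11.4% with that median set to 0. Got1, the cytosolic aspartate aminotransferase, was at 138 FPKM in SRSF1-MKO and 49.3 FPKM in WT, and its mitochondrial counterpart Got2 at 237 FPKM in SRSF1-MKO and 112 FPKM in WT. Both aspartate enzymes were higher past 1.5-fold. Gpt, an alanine aminotransferase, was at 5.45 FPKM in SRSF1-MKO and 1.54 FPKM in WT, whereas the more abundant Gpt2 was at 25.2 FPKM in SRSF1-MKO and 28.2 FPKM in WT. Glutamine synthetase (Glul) was at 67.3 FPKM in SRSF1-MKO and 40.9 FPKM in WT, and Glud1 at 33.4 FPKM in SRSF1-MKO and 27.6 FPKM in WT.

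Of 6 regulators known to act on oxidative or amino acid metabolism in muscle, 3 were higher by 1.5-fold in SRSF1-MKO. Klf15, a transcription factor that raises Bcat2 in mouse muscle and heart, was at 5.48 FPKM in SRSF1-MKO and 2.95 FPKM in WT, and Ppargc1a, the coactivator of oxidative metabolism, at 11.9 FPKM in SRSF1-MKO and 3.23 FPKM in WT. Esrra was at 10.5 FPKM in SRSF1-MKO and 5.08 FPKM in WT. Klf15, Ppargc1a and Esrra make up the 3 genes past 1.5-fold. Ppargc1b (3.43 FPKM in SRSF1-MKO and 2.14 FPKM in WT) and Ppard (5.41 FPKM in SRSF1-MKO and 3.50 FPKM in WT) were between the limits, and Ppara was under the filter. Of the 5 genes compared, 3 were higher and 0 lower (2 and 0 with that median set to 0). Bcat2 had a ratio of 0.413, and the part of these regulators in that difference was not tested. The share of all genes that were higher was 23.7% as deposited and 11.4% with that median set to 0.

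The pyruvate dehydrogenase complex is built on the same plan and gives a like set of parts. Its beta subunit Pdhb was at 212 FPKM in SRSF1-MKO and 87.3 FPKM in WT (ratio 2.43) beside the ratio of 0.836 for Bckdhb. Pdha1, the counterpart of Bckdha, was at 277 FPKM in SRSF1-MKO and 186 FPKM in WT, and Dlat, the counterpart of Dbt, at 22.3 FPKM in SRSF1-MKO and 28.3 FPKM in WT. Pdhb was thus past 1.5-fold, and the counterparts of Bckdha and Dbt were not. Pdk4 was at 299 FPKM in SRSF1-MKO and 16.3 FPKM in WT, while the related kinase Bckdk had a ratio of 0.848. Pdk1 (5.57 FPKM in SRSF1-MKO and 6.56 FPKM in WT) and Pdk2 (66.3 FPKM in SRSF1-MKO and 51.1 FPKM in WT) lay between the limits, and Pdk3 and Pdp2 were under the filter. Of the kinases compared, Pdk4 was the 1 past 1.5-fold. Pdp1, a phosphatase of the pyruvate complex, was at 8.71 FPKM in SRSF1-MKO and 8.76 FPKM in WT, and its regulatory partner Pdpr at 7.83 FPKM in SRSF1-MKO and 8.78 FPKM in WT. Pdhx (24.3 FPKM in SRSF1-MKO and 19.5 FPKM in WT), Ogdh (42.9 FPKM in SRSF1-MKO and 55.7 FPKM in WT) and Dlst (82.1 FPKM in SRSF1-MKO and 65.3 FPKM in WT) were within 1.5-fold. Of 11 genes of this list compared, 2 were higher and 0 lower, or 2 and 2 with the median of genes at 5 FPKM or more set to 0. As deposited, the 2 higher genes were a smaller share than the 23.7% of all genes. With that median set to 0, 11.4% of all genes were higher and 18.1% lower.

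Markers of other cells in the tissue moved in both directions. Among all genes compared, 23.7% were higher and 8.13% lower as deposited. With the median of genes at 5 FPKM or more set to 0, these shares were 11.4% and 18.1%. Macrophage markers were higher in 5 of 9 compared (3 of 9 with the median of genes at 5 FPKM or more set to 0) and lower in 0; Cd68, 1 of the 5, passed the filter through SRSF1-MKO (7.99 FPKM, against 0.752 FPKM in WT). Macrophage markers had summed levels of 111 FPKM in SRSF1-MKO and 48.04 FPKM in WT. Endothelial markers were lower in 2 of 8 (6 of 8 with that median set to 0) and higher in 0, with sums of 51.3 FPKM in SRSF1-MKO and 74.5 FPKM in WT. Fibro-adipogenic markers were lower in 1 of 8, namely Col1a1 (121 FPKM in SRSF1-MKO and 276 FPKM in WT), or 2 of 8 with that median set to 0. Their sums were 438 FPKM in SRSF1-MKO and 599 FPKM in WT, with most of the gap at Col1a1. As deposited, 5 of the 8 lay above 0, with a median log2 ratio of 0.21. Smooth muscle markers were higher in 1 of 5, namely Des, which muscle fibres also make. They were lower in 0, or 2 with that median set to 0. Erythroid markers had 0 of 5 past 1.5-fold, or 3 of 5 lower with that median set to 0, and satellite cell markers 0 of 3 on both scales. Their part in the differences of the 10 genes was not tested.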

How the data were processed

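RNA of 1 SRSF1-MKO and 1 WT hindlimb muscle library was measured by sequencing; per the labels' protocols, RNA was taken with Trizol. The authors deposited 1 table of FPKM, and per the submitters' processing notes Bowtie and build mm10 were used; the version, annotation, strandedness and counting are not stated there, nor in the labels. An emptied line (1 in all) was not analysed here. Columns were matched to groups by the genotype in their names, and 0 columns were left unused.

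The commonest ratio between columns is the ratio of 1-read values (1.08). Of 19044 genes above 0 in both, 92.8% gave whole reads with it (relative tolerance 1e-12, denominators to 3000), against 0.294% with the constant changed by 1 in 10000. The WT total came from 646 genes whose span gave the same value. Reads of a gene are the smallest whole numbers that imply a whole length no shorter than its GENCODE M21 coding length. Intervals are exact Clopper-Pearson for ratios, and conditional exact for quotients of 2 ratios (scipy 1.17.1). The steps were tested on simulated data.

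The 10 genes, the lists and the grouping by step were chosen with earlier results of these data known. Text names all members, all measured genes of the pathway, transport, acceptor, regulator and pyruvate dehydrogenase lists, and up to 4 genes past 1.5-fold of others; marker genes are mostly given as counts, and 1 further pathway gene is not reported here. Alternatives were another pseudocount, 4 scalings, other filters and a 2-fold rule. To leave mitochondrial and ribosomal RNA out of the scale, FPKM was divided by the share of summed FPKM that the other genes held. That is a share of FPKM and not of reads.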

Additional observations from a re-analysis of the deposited data

How the results depend on the processing

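No member was higher by 1.5-fold under any of the 8 alternatives. The number lower was 4 as reported, 4 with a pseudocount of 0.1 or with no filter, and 5 with the all-gene median (genes at 1 or at 5 FPKM or more) set to 0 or the columns scaled to a common sum. Of all genes, 11.2% were lower with that pseudocount, 2.31% of all rows with no filter, and 13.6%, 18.1% and 17.4% under those 3 scalings. It was 1 (Bcat2; 5.01% of all genes) with mitochondrial and ribosomal RNA left out of the scale, which lifts the median of all genes compared to 0.48. It was 2 with a mean of 5 FPKM or more, where Bcat2 and Ppm1k are not compared (8.56% of all genes), and 0 with a 2-fold rule (3.12%). The median of the members was -0.35 as reported, and moved to -0.55 and -0.67 with the medians of genes at 1 and at 5 FPKM or more set to 0, to -0.66 with a common sum, and to -0.066 with mitochondrial and ribosomal RNA left out. Bcat2, Ppm1k, Ivd, Mccc1 and Mccc2 stayed below 0 under all 6 settings of scale and pseudocount. Bckdha, Bckdhb, Dbt, Bckdk and Hibadh changed sign with the scale. With mitochondrial and ribosomal RNA left out, Dbt was at 0.51, above the median of 0.48 of all genes compared. The mitochondrial genome took 35.4% of summed FPKM in SRSF1-MKO and 19.5% in WT. Depth limits Ppm1k most, with 18 and 44 reads as a lower bound. No paired analysis was possible because each group holds 1 library.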

Other observations

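IVD hands its electrons to the electron transfer flavoprotein, and 2 of the 3 genes of that chain were higher in SRSF1-MKO. By the same rule 23.7% of all genes compared were higher. Etfa, a subunit of the electron transfer flavoprotein, was at 99.9 FPKM in SRSF1-MKO and 54.2 FPKM in WT, and Etfdh, which hands the electrons to ubiquinone, at 52.2 FPKM in SRSF1-MKO and 24.6 FPKM in WT. The other subunit, Etfb, was at 58.9 FPKM in SRSF1-MKO and 39.7 FPKM in WT, short of 1.5-fold; with the median of genes at 5 FPKM or more set to 0, Etfa was short of it too and Etfdh was not. Among the acyl-CoA dehydrogenases that feed them, the long-chain enzymes Acadl (317 FPKM in SRSF1-MKO and 123 FPKM in WT) and Acadvl (69.1 FPKM in SRSF1-MKO and 38.7 FPKM in WT) were higher. The short-chain Acads (3.97 FPKM in SRSF1-MKO and 9.22 FPKM in WT) and Gcdh of lysine breakdown (3.49 FPKM in SRSF1-MKO and 6.45 FPKM in WT) were lower, as were Acadsb and Ivd. Of 11 genes of this list, 4 were higher and 3 lower, or 2 and 4 with the median of genes at 5 FPKM or more set to 0. The shares of all genes were 23.7% higher and 8.13% lower, or 11.4% and 18.1% with that median set to 0.

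Of 7 other genes of biotin-dependent carboxylases and biotin handling, 1 was lower (Pcca) and 0 higher, beside 8.13% lower and 23.7% higher of all genes. With the median of genes at 5 FPKM or more set to 0, 3 were lower and 0 higher, when 18.1% of all genes were lower. Acacb was at 10.4 FPKM in SRSF1-MKO and 12.0 FPKM in WT. Biotin ligase (Hlcs) was at 1.22 FPKM in SRSF1-MKO and 1.10 FPKM in WT. Of 16 citric acid cycle genes, which take up the end products, 4 were higher and 0 lower, a share near the 23.7% of all genes that were higher, or 1 and 2 with the median of genes at 5 FPKM or more set to 0. Their median log2 ratio was 0.33 as deposited. Sdhd, a subunit of succinate dehydrogenase, was at 133 FPKM in SRSF1-MKO and 56.6 FPKM in WT.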
